A study of Homo sapiens with 12 samples.

Results

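MDA-MB-231 and T47D cells were compared after 3 days in a synthetic matrix that carried the collagen mimic GFOGER, using the 6 RNA libraries of these conditions out of the 11 libraries of the series with counts. MDA-MB-231 is an estrogen receptor negative (ER−) line of the basal subtype and T47D an estrogen receptor positive (ER+) line of the luminal A subtype, both derived from pleural effusions of metastatic breast adenocarcinoma. Single cells of each line were encapsulated in a poly(ethylene glycol) hydrogel with a cell-degradable crosslinker and GFOGER peptide, and no other treatment was given. The other conditions of the series held the laminin mimic IKVAV in place of GFOGER. Each of the compared conditions had 3 libraries, each of them from 3 degraded gels that were combined. The comparison covered all 14579 genes that passed a filter on low counts, of 23368 distinct symbols in the table. Each subtype was represented by 1 cell line, so line and subtype cannot be told apart, and with no label that tells whether the gels came from separate cultures the p-values measure the spread between libraries, which may be technical.

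GFOGER is the motif of fibrillar collagen that is bound by the collagen-binding integrins, in which an alpha subunit pairs with the beta 1 subunit. Luminal breast cancer cells keep an epithelial program built on estrogen receptor, its pioneer factors and E-cadherin junctions, whereas basal lines such as MDA-MB-231 often carry a mesenchymal program with vimentin, ZEB factors and secreted proteases. Poly(A) RNA-seq measures the messenger RNA of these programs in bulk, so fewer cells of a type and less RNA per cell cannot be told apart.

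The libraries held 16231366 to 18449108 counted reads and between 16634 and 17033 genes with a count. Levels are given as counts per 1000000 counted reads (cpm) after normalization by the trimmed mean of M values (TMM), and a single library could show 3 counts at 0.169 to 0.186 cpm. Across genes, Spearman correlations were 0.993 to 0.998 within a line and 0.732 to 0.74 between lines, and the leading principal component, which separated the lines, took 97.4% of the variance. Replicate 3 of the MDA-MB-231 cells stood apart from the other replicates of its line, with 16.4 and 18.6 times the variance of counting noise against 2.51 times between replicates 1 and 2, while the T47D pairs lay between 4.01 and 9.92 times. The library totals implied by the authors' RPKM values, 20930861 to 22840524 reads for MDA-MB-231 and 5291494 to 5774966 reads for T47D, differed between the lines although the counted reads did not, and within GFOGER this difference cannot be told apart from the cell line.

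The labels of both lines were checked against marker genes. All 14 luminal epithelial markers were lower in MDA-MB-231 cells, 10 of 11 mesenchymal breast cancer markers were higher, and the remaining one, SPARC, was near 1 cpm in both lines (1.24 against 1.44 cpm). ESR1, the estrogen receptor, stood at 0.685, 0.68 and 0.794 cpm in the MDA-MB-231 libraries and at 255, 279.7 and 269 cpm in the T47D libraries, with an estimate of -8.52 ± 0.13 (SE) on the log2 scale, where a positive log2 fold change throughout means higher in MDA-MB-231 cells. VIM, the mesenchymal filament vimentin, stood at 2267, 2310 and 2409 cpm in the MDA-MB-231 libraries and at 4.45, 3.84 and 4.91 cpm in the T47D libraries, a log2 fold change of 9.04 ± 0.11 (SE). The libraries of the lines did not overlap for either gene, as for 81.9% of all genes tested. ESR1 messenger RNA was thus low in the line described as ER− and high in the line described as ER+. Receptor protein was not measured in these libraries. Of the basal epithelial markers 5 of 8 tested were higher and 2 lower, and the defining basal keratins were absent or nearly so: KRT5 and KRT14 did not pass the filter, and KRT17 was at 0.662 against 0.0198 cpm. Markers of cells that a pure culture should lack were summed as well. Fibroblast markers came to 6.11 to 7.49 cpm in MDA-MB-231 and 0 to 0.534 cpm in T47D libraries, with DPT at 0 in all 6. The 2 members tested (8 in the table), LUM and PDGFRB, were higher. Endothelial markers came to 113 to 128 and 5.54 to 6.56 cpm, with 4 of 4 tested (8 in the table) higher, most of it from ESAM (87.8 against 5.37 cpm), while the defining CDH5 and VWF did not pass the filter. Leukocyte markers came to 355 to 476 and 3.56 to 4.27 cpm, with 3 of 3 tested (10 in the table) higher, nearly all from CD68 (385 against 2.69 cpm), a lysosomal glycoprotein, while PTPRC did not pass the filter and MS4A1 and TYROBP were at 0 in all 6. In these lists of other cell types, genes near 0 in T47D cells could pass the filter through the MDA-MB-231 libraries alone. Their counts of higher members were therefore largely fixed in advance. The part of other cells in any result was not tested.

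The lines differed across the whole range of expression. The quasi-likelihood test of edgeR, with p-values adjusted by Benjamini and Hochberg's method, called 11801 genes at any fold, and 6718 of 14579 genes, 46.1%, at an adjusted p below 0.05 and a change above 2-fold. Of these, 3407 were higher in MDA-MB-231 cells (23.4% of the genes tested) and 3311 were lower (22.7%). These shares are the background for every gene list below. The differences were large: 3735 called genes differed by over 4-fold, 2010 by over 16-fold, and 1129 of the latter were higher in MDA-MB-231 against 881 lower. The libraries of the lines did not overlap for 6702 of the called genes, and for 81.9% of all genes tested. With replicate 3 of the MDA-MB-231 cells left out, 6893 genes were called. Scaling by upper quartiles or library size moved the median log2 fold change of all genes from 0.01 to -0.10 and -0.10, so that values near 0 are relative to the TMM scaling.

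**Figure D1:**
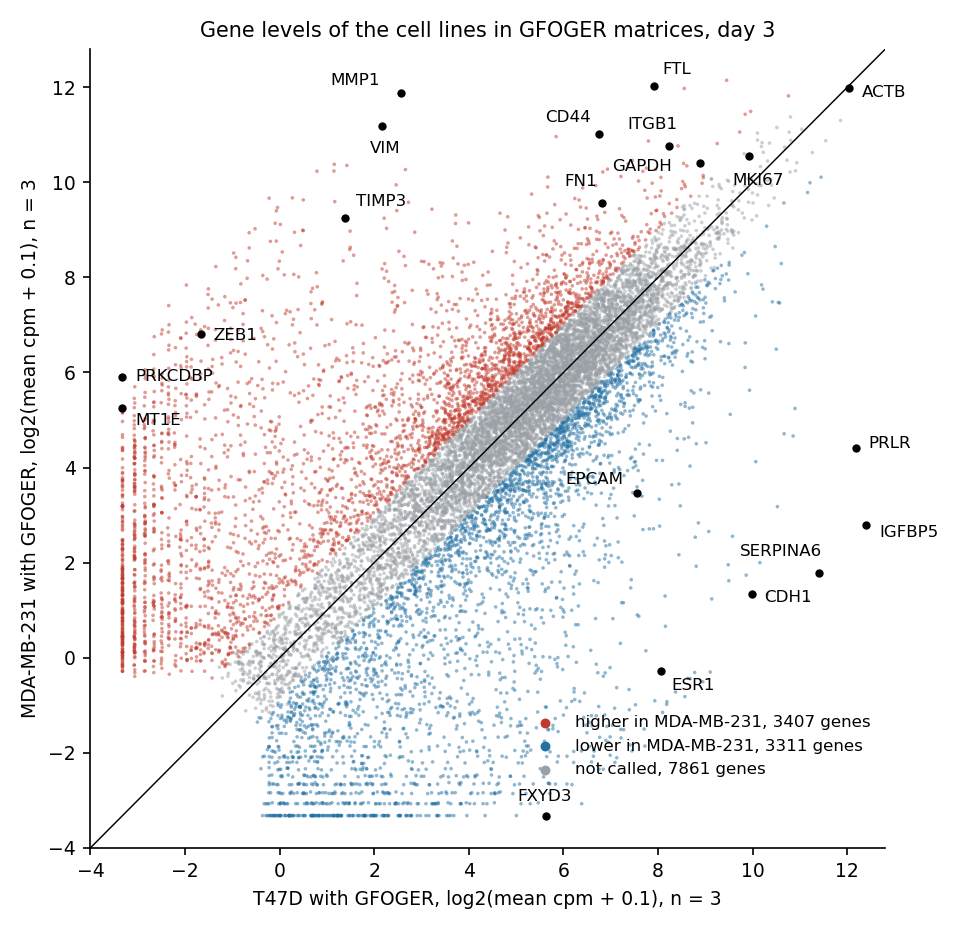
Mean level of each of the 14579 genes tested in T47D (horizontal) and MDA-MB-231 cells (vertical) with GFOGER, as log2 of the mean cpm of 3 libraries plus 0.1; colours mark the 3407 genes called higher and 3311 called lower in MDA-MB-231, and the line marks equal levels. MMP1 and VIM lie far above the line, CDH1 and ESR1 far below it, and ACTB on it.

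The highest levels per kilobase of transcript gave a first picture of each line. In MDA-MB-231 cells the 10 genes with the highest cpm per kilobase were FTL at 4761, ACTB, S100A6, TMSB10, MMP1 at 1837, FTH1, CALR, PFN1, PKM2 and VIM at 1090.1. In T47D cells they were ACTB at 2326, SERPINA6 at 1823, MGP at 1546, AGR2 at 1496, RPLP1, CTSD, RPS25, RPL8, CALR and RPL35A. FTL encodes the ferritin light chain and stood at 4024, 4167 and 4249 cpm in the MDA-MB-231 libraries and at 249, 241 and 238 cpm in the T47D libraries, whereas FTH1, the ferritin heavy chain, missed the 2-fold threshold (1896 against 1099 cpm, log2 fold change 0.79). SERPINA6, the corticosteroid-binding globulin, and MGP, matrix Gla protein, were at 2719 against 3.35 cpm and 2277 against 2.22 cpm for T47D against MDA-MB-231. ACTB, beta actin, was in both lists and differed by -0.06 on the log2 scale (4040.1 against 4215 cpm), with overlapping libraries.

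The receptors of the GFOGER motif come first, since they bind the peptide of this matrix. Of 7 collagen-binding integrin subunits and collagen receptors in the table, 5 were tested, 3 were higher in MDA-MB-231 cells and 1 was lower. ITGA2, the alpha 2 subunit, stood at 979, 998 and 895 cpm in the MDA-MB-231 libraries and at 52.7, 50.6 and 48.8 cpm in the T47D libraries, a log2 fold change of 4.24 ± 0.08 (SE) (edgeR adjusted p = 2.45e-15). ITGB1, its beta 1 partner, stood at 1807, 1852 and 1552 cpm in the MDA-MB-231 libraries and at 298, 269 and 329.9 cpm in the T47D libraries, a log2 fold change of 2.54 ± 0.09 (SE) (edgeR adjusted p = 2.24e-12). ITGA1, the alpha 1 subunit, stood at 142, 141 and 115 cpm in the MDA-MB-231 libraries. In the T47D libraries ITGA1 was low but detected, at 0.712, 1.0 and 0.847 cpm. In each of these genes every MDA-MB-231 library lay above every T47D library. The annotated span of ITGA1 overlaps that of PELO, so that reads of the overlap are uncertain between them. ITGA10 was low and missed the threshold (11.4 against 9.82 cpm, log2 fold change 0.22), and ITGA11 and DDR2 did not pass the filter. Per kilobase, alpha 2 exceeded alpha 1 in both lines, at 122 against 27.6 cpm per kilobase in MDA-MB-231 and 6.44 against 0.178 in T47D cells. DDR1, a receptor tyrosine kinase for collagen, went the other way, at 90.0, 92.7 and 118 cpm in the MDA-MB-231 libraries and at 629, 699 and 590 cpm in the T47D libraries (log2 fold change -2.67 ± 0.11 (SE)).

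**Figure D2:**
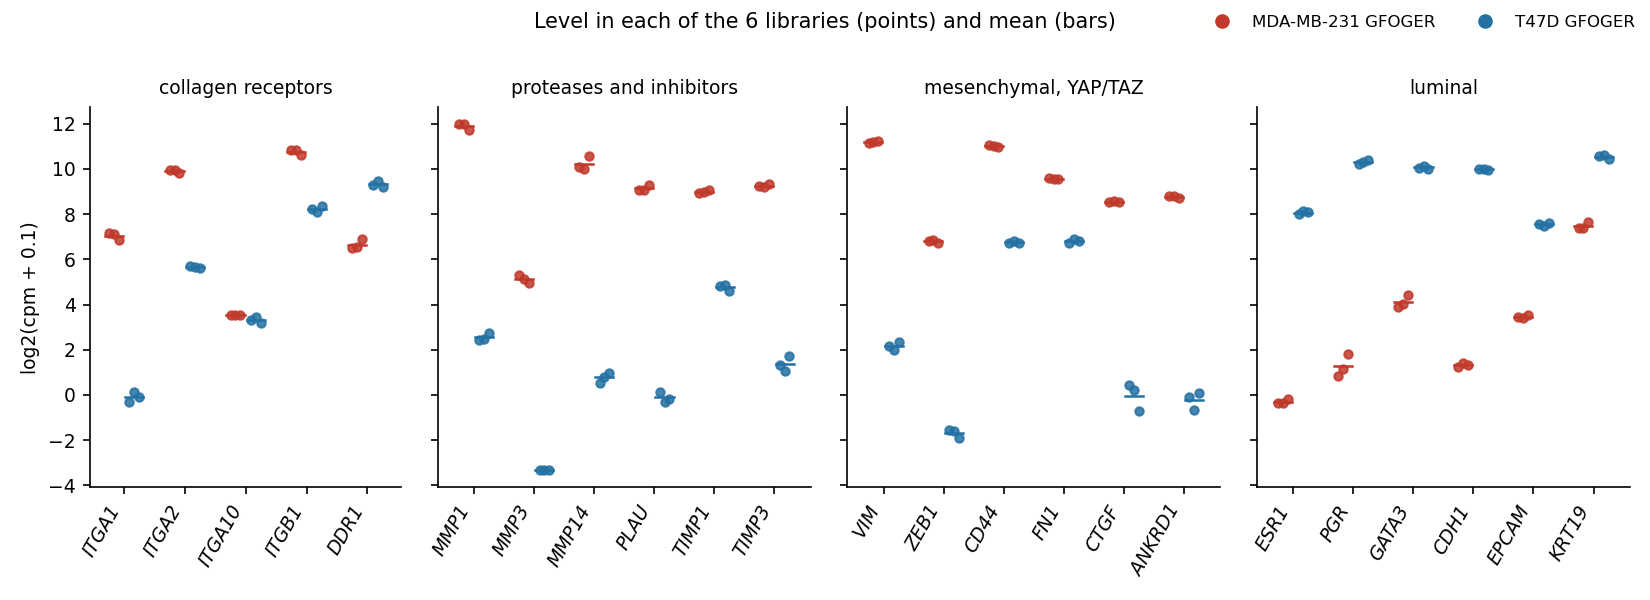
Levels of 23 named genes as log2(cpm + 0.1) in each of the 6 libraries, with red points for MDA-MB-231 and blue points for T47D cells in GFOGER and a bar at the mean of the log2 values. The lines are separated for every gene shown, and only for ITGA10 is the gap small; MMP3 had no count in the 3 T47D libraries.

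Among all integrin subunits, 8 of 20 tested (26 in the table) were higher and 5 lower, with a median log2 fold change of 0.71. The partners of beta 1 for laminin and fibronectin were also higher in MDA-MB-231 cells: ITGA3 (1105 against 50.8 cpm), ITGA6 (944 against 84.7 cpm) and ITGA5 (312 against 13.5 cpm) had log2 fold changes of 4.44, 3.48 and 4.53. The vitronectin receptor subunit ITGB3 was at 16.8 against 0.215 cpm, while its partner ITGAV (302 against 176 cpm) and ITGB4 (249 against 190.3 cpm), the beta 4 subunit of hemidesmosomes, missed the threshold. The 5 lower subunits were ITGAL (0.0395 against 24.6 cpm), ITGA2B, ITGAM, ITGA7 and ITGB6, of which only ITGAL passed 10 cpm in T47D cells. The summed level of the family was 5910.4 to 6074 cpm in MDA-MB-231 and 1022 to 1059 cpm in T47D libraries.

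Some proteases that cleave collagen and the matrix were among the most unequal genes. Of the matrix metalloproteinases, 7 of 11 tested (24 in the table) were higher and 2 lower, with a median log2 fold change of 1.37. MMP1, interstitial collagenase, stood at 3992, 4013 and 3321 cpm in the MDA-MB-231 libraries and at 5.34, 5.43 and 6.67 cpm in the T47D libraries, a log2 fold change of 9.34 ± 0.13 (SE). MMP14, the membrane-type protease that activates pro-MMP2, stood at 1081, 1027 and 1505 cpm in the MDA-MB-231 libraries and at 1.36, 1.65 and 1.86 cpm in the T47D libraries, a log2 fold change of 9.52 ± 0.19 (SE). MMP3, stromelysin 1, stood at 39.8, 35 and 31.2 cpm in MDA-MB-231 cells and had no count in any T47D library, which makes it at least 606-fold higher against a floor of 3 counts over the 3 libraries. Every MDA-MB-231 library was far above every T47D library for these proteases. MMP9, gelatinase B, was higher at a low level (10.3 against 0.409 cpm), MMP2 did not pass the filter, and MMP17 (1.58 against 16.9 cpm) and MMP25 (1.61 against 3.84 cpm) were lower in MDA-MB-231 cells. All 4 tissue inhibitors were higher as well: TIMP3 stood at 599, 588 and 635 cpm in the MDA-MB-231 libraries and at 2.37, 2.01 and 3.16 cpm in the T47D libraries (log2 fold change 7.91 ± 0.13 (SE)), TIMP1 at 511 against 27.1 cpm, TIMP2 at 1191 against 114 cpm and TIMP4 at 2.89 against 0 cpm, at least 49.5-fold higher. The median over these inhibitors was 6.07 as fitted and 4.93 with TIMP4 at its bound, the only list of those described here whose median the bounds moved, leaving aside the endothelial markers.

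The urokinase system and the enzymes that modify collagen showed the same direction in 29 of 41 members tested (44 in the table), with 3 lower and a median of 1.92. PLAU, urokinase, stood at 533, 539 and 619.6 cpm in the MDA-MB-231 libraries and at 1.01, 0.709 and 0.791 cpm in the T47D libraries (log2 fold change 9.39 ± 0.14 (SE)), again without overlap. Its receptor PLAUR (160.2 against 1.21 cpm), tissue plasminogen activator PLAT (709.8 against 0.87 cpm) and the coagulation starter F3 (408 against 1.26 cpm) with its inhibitors TFPI (103 against 0.291 cpm) and TFPI2 (326 against 0.525 cpm) were all near 1 cpm or less in T47D cells. The collagen crosslinkers LOX (128 against 1.11 cpm), LOXL2 (520.4 against 0.597 cpm) and LOXL4 (69.8 against 0.465 cpm) were higher, as were the collagen lysyl and prolyl hydroxylases PLOD1, PLOD3 and P4HA1 by log2 fold changes of 1.82, 1.73 and 1.92. The lower members were CTSL2 (3.47 against 24.4 cpm), ADAM15 (152 against 389 cpm) and LOXL3 (1.14 against 3.34 cpm), and the lysosomal proteases CTSB (391 against 332 cpm) and CTSD (1879 against 2986 cpm) missed the threshold. In the ADAMTS family 9 of 14 tested were higher, led by ADAMTS12 (67.1 against 0.0582 cpm) and ADAMTS9 (129 against 0.19 cpm), and 4 were lower, all below 10 cpm in T47D cells.

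The cells' own matrix genes differed in kind as well as in level. Of the collagen chains, 19 of 26 tested (43 in the table) were higher and 5 lower, with a median of 3.38. Chains of basement membrane collagen (COL4A1 at 61 against 0.0395 cpm and COL4A2 at 171 against 0.308 cpm), of collagen VI (COL6A1, COL6A2 and COL6A3 at 223 against 1.64 cpm, 54.8 against 0.294 cpm and 62.9 against 0.214 cpm), and COL5A1 (324 against 0.896 cpm), COL13A1 (217 against 0.252 cpm), COL12A1 (171 against 10.6 cpm) and COL7A1 (188 against 14 cpm) were higher in MDA-MB-231 cells. COL1A1, the main chain of fibrillar collagen I, was lower, at 10.8, 9.59 and 14 cpm in the MDA-MB-231 libraries and at 59.8, 61.7 and 55.8 cpm in the T47D libraries (log2 fold change -2.36 ± 0.13 (SE)), whereas COL1A2, its partner chain, was higher at a low level (2.3 against 0.134 cpm, log2 fold change 4.01). 7 of 10 laminin chains were higher and none lower. LAMB3, the beta 3 chain of the laminin of hemidesmosomes, was at 765 against 6.5 cpm. The alpha 3 chain LAMA3 (101 against 51.7 cpm, log2 fold change 0.96), LAMA5 (363 against 479.5 cpm) and LAMB2 (339 against 447 cpm) missed the threshold. FN1, fibronectin, stood at 771, 758 and 754 cpm in the MDA-MB-231 libraries and at 107, 120.1 and 111 cpm in the T47D libraries (log2 fold change 2.76 ± 0.08 (SE)), without overlap. Among hyaluronan and proteoglycan genes 13 of 25 tested were higher and 5 lower. CD44, the hyaluronan receptor, stood at 2128, 2072 and 1975 cpm in the MDA-MB-231 libraries and at 107, 111 and 106 cpm in the T47D libraries (log2 fold change 4.25 ± 0.08 (SE)), the hyaluronan synthase HAS2 was at 12.1 against 0.0771 cpm and THBS1, thrombospondin 1, at 4536 against 699 cpm. GPC4 (0.0395 against 23.2 cpm) and VCAN (1.26 against 13.2 cpm) were lower, and the syndecans SDC1 (69.9 against 80.7 cpm) and SDC4 (371 against 252 cpm) missed the threshold.

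The mesenchymal list gave one of the clearest splits. Of 36 genes, 34 were tested, 28 were higher in MDA-MB-231 cells and 3 lower, with a median log2 fold change of 6.90. Caveolae genes CAV1 (491 against 0.54 cpm), CAV2 (169.7 against 0.0969 cpm), PTRF (678 against 5.46 cpm) and PRKCDBP, at 56.3, 56.7 and 67.2 cpm with no T47D count, were among the most unequal in the table. The receptor tyrosine kinase AXL (1207 against 2.12 cpm), the membrane linker MSN (1332 against 2.13 cpm) and the transforming growth factor beta receptor TGFBR2 (676 against 0.853 cpm) were each below 3 cpm in T47D cells. The 3 lower members were the smooth muscle genes ACTA2 (3.46 against 7.5 cpm) and TAGLN (2.89 against 6.23 cpm) and the G protein subunit GNG11 (102 against 306 cpm), of which 1 was called when the 2-fold threshold was part of the test. N-cadherin, CDH2, was higher at a low level (1.45 against 0.191 cpm), and CDH11, cadherin 11, was at 365 against 0.41 cpm. Of the transcription factors of epithelial to mesenchymal transition 9 of 19 tested were higher and 5 lower, with a median log2 fold change of 0.64 that became 0.15 with at least 10 counts asked of every library and 0.14 in a fit of 4 conditions with a term for the libraries' implied totals. ZEB1 stood at 113, 117 and 106 cpm in the MDA-MB-231 libraries and at 0.237, 0.236 and 0.169 cpm in the T47D libraries (log2 fold change 8.99 ± 0.17 (SE)), with no overlap. SNAI2 (46.4 against 0.154 cpm), ZEB2 (25.2 against 0.156 cpm), FOSL1 (554 against 0.911 cpm) and ETS1 (394 against 0.541 cpm) were also higher. SNAI1 (2.98 against 4.05 cpm) missed the threshold, TWIST1 had no count in MDA-MB-231 libraries and 1.69 cpm in T47D libraries, and KLF8 (2.92 against 60.7 cpm) and SOX4 (30.1 against 120 cpm) were lower.

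Cytoskeletal genes differed less. Of the actin and focal adhesion genes, 22 of 45 tested were higher, 3 lower and 20 not called, with a median of 0.86. FLNC (290.2 against 0.876 cpm), FSCN1, the bundler fascin (66.1 against 1.81 cpm), TPM4 (863 against 40.1 cpm) and FLNA (4027 against 376 cpm) led the higher ones, followed by the adhesion proteins ZYX (186 against 23.8 cpm), TLN1 (1011 against 235 cpm) and PXN (631 against 150.4 cpm). PARVB was nearly undetected in MDA-MB-231 cells (0.136 against 4.68 cpm) while its relative PARVA was higher (232 against 44.6 cpm). The kinase PTK2 (221 against 175 cpm), CFL1 (1054 against 1278 cpm) and EZR (396 against 396 cpm) missed the threshold.

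The mechanically regulated coactivators YAP and TAZ and their targets were higher in MDA-MB-231 cells for 20 of 26 genes, with 2 lower and a median of 2.30. YAP1 itself was not called (335 against 292 cpm), while WWTR1, which encodes TAZ, was higher (178 against 68.1 cpm). CTGF stood at 365, 383 and 365 cpm in the MDA-MB-231 libraries and at 1.25, 1.06 and 0.508 cpm in the T47D libraries, a log2 fold change of 8.62 ± 0.16 (SE). ANKRD1 stood at 439, 446 and 413 cpm in the MDA-MB-231 libraries and at 0.83, 0.532 and 0.96 cpm in the T47D libraries, a log2 fold change of 9.11 ± 0.14 (SE). CYR61 was at 1995 against 57.4 cpm and NT5E, the ectonucleotidase CD73, at 813 against 0.758 cpm. These genes were high in all 3 MDA-MB-231 libraries and, apart from CYR61, below 3 cpm in every T47D library. The members that did not follow were NUAK2 (3.88 against 22 cpm) and ARHGEF17 (68.7 against 148 cpm), both lower, and FJX1, MYOF and AMOTL2, which like YAP1 missed the threshold. YAP and TAZ act through TEAD factors, whose site has the core CATTCC, and the promoters of both genes are shown because they carry the core in the 250 bases before the start. The sequences are from RefSeq on GRCh38.p14 and run 5′ to 3′ toward the gene's start on the minus strand, at chr6:131951373-131951622 for CTGF (listed as CCN2) and chr10:90921088-90921337 for ANKRD1, with the core on either strand in capitals.
CTGF: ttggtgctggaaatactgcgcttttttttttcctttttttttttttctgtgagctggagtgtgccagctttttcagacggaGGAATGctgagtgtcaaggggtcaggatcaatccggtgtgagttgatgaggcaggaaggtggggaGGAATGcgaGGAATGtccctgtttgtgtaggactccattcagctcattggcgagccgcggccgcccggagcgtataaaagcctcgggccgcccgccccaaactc
ANKRD1: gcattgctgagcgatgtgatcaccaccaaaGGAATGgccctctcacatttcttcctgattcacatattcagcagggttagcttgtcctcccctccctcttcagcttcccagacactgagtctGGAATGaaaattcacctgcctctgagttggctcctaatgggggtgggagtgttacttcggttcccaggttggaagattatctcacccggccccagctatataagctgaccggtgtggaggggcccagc
The CTGF promoter held 3 cores, which began at -169, -104 and -95 from the start, and the ANKRD1 promoter held 2, at -220 and -128. Among the 19 list members with a promoter in the table, 7 held the core, or 36.8%, against 11.9% of all 27305 promoters of the same length. Members with the core went different ways, since NUAK2, which was lower, and YAP1, which was not called, held it too. The core was present in 11% of the promoters of genes called higher, 9.86% of those called lower and 8.83% of those not called. A match describes these letters and is no evidence of binding.

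The luminal program was lower in MDA-MB-231 cells for 21 of 27 luminal transcription factors, with 3 higher and a median of -4.33. FOXA1, the pioneer factor of estrogen receptor, stood at 0.685, 0.371 and 1.08 cpm in the MDA-MB-231 libraries and at 546, 549 and 554 cpm in the T47D libraries (log2 fold change -9.56 ± 0.16 (SE)). GATA3 stood at 14.6, 16 and 21.5 cpm in the MDA-MB-231 libraries and at 1065, 1125 and 1024 cpm in the T47D libraries (log2 fold change -5.95 ± 0.13 (SE)). Neither overlapped between the lines, although GATA3 was still above 10 cpm in every MDA-MB-231 library. GRHL2 (0.427 against 292 cpm), ELF5 (0.157 against 175 cpm), TRPS1 (37.8 against 1902 cpm) and XBP1 (89.8 against 1447 cpm) were also lower. Exceptions were KLF4 (133 against 32.1 cpm), KLF5 (72.3 against 11.7 cpm) and STAT5A (23.3 against 4.99 cpm), which were higher, and EHF (551 against 707 cpm), an epithelial ETS factor that was abundant in both lines and missed the threshold.

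Of the estrogen receptor targets 23 of 30 were lower in MDA-MB-231 cells, with a median of -3.34. PGR, the progesterone receptor, stood at 1.71, 2.1 and 3.4 cpm in the MDA-MB-231 libraries and at 1201, 1268 and 1336 cpm in the T47D libraries (log2 fold change -9.03 ± 0.16 (SE)). GREB1 was at 3.78 against 716 cpm, the chemokine CXCL12 at 0.604 against 493 cpm, the prolactin receptor PRLR at 21.1 against 4662 cpm and the carbonic anhydrase CA12 at 25.2 against 1853 cpm. The secreted trefoil factors, often used as readouts of estrogen receptor, were low in T47D cells too, with TFF1 at 2.08, 1.95 and 1.3 cpm and TFF3 at 8.18, 8.57 and 6.84 cpm. CCND1, cyclin D1 (960.1 against 382 cpm), IGFBP4 (1803 against 609 cpm) and the cationic amino acid transporter SLC7A2 (51.8 against 0.096 cpm) were higher in MDA-MB-231 cells, and AREG was low in both lines (0.918 against 0.58 cpm). Among mucins and luminal secreted proteins, 18 of 33 tested (51 in the table) were lower and 9 higher. IGFBP5 (6.86 against 5422 cpm), PIP (0.641 against 396 cpm), MUC1 (26.1 against 1623 cpm) and CLU (34.6 against 737 cpm) were lower, whereas IGFBP7 (146 against 0.795 cpm), IGFBP3 (45.8 against 1.53 cpm) and STC1 (339.5 against 12.6 cpm) were higher.

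Junction genes were lower in MDA-MB-231 cells for 30 of 38 members tested and higher for 1. CDH1, E-cadherin, stood at 2.28, 2.6 and 2.44 cpm in the MDA-MB-231 libraries and at 1008, 1025 and 988 cpm in the T47D libraries (log2 fold change -8.69 ± 0.10 (SE)). EPCAM, an epithelial adhesion molecule, stood at 11, 10.6 and 11.3 cpm in the MDA-MB-231 libraries and at 187, 177 and 196 cpm in the T47D libraries (log2 fold change -4.09 ± 0.09 (SE)). In both genes every T47D library was above every MDA-MB-231 library, and EPCAM was still detected in MDA-MB-231 cells. The splicing factors ESRP1 (0.406 against 290.3 cpm) and ESRP2 (6.45 against 225 cpm), the protease ST14 (5.77 against 761 cpm), MARVELD3 (0.0603 against 51.4 cpm) and the GTPase RAB25 (0.117 against 136 cpm) were among the lowest relative to T47D cells. The catenins that link cadherins to actin did not share this: CTNNB1 (637 against 375 cpm) and CTNNA1 (837 against 467 cpm) missed the threshold with estimates above 0, while JUP, plakoglobin, was lower (179 against 1365 cpm). The claudins were split, with 5 higher and 5 lower of 13 tested: CLDN1, CLDN3, CLDN4, CLDN7 and CLDN8 were lower, and CLDN12 (116 against 40.9 cpm) and CLDN2 (7.02 against 0.268 cpm) were higher. The keratins were split too, 6 higher and 6 lower. KRT19 (178 against 1490.4 cpm), KRT8 (207 against 792 cpm) and KRT18 (151 against 500 cpm) were lower, where the annotated spans of KRT8 and KRT18 overlap, and KRT7 (234 against 78.7 cpm), KRT80 (231 against 62 cpm) and the hair keratin KRT81 (67.9 against 0.097 cpm) were higher. In the cadherin family 7 of 11 tested were lower, among them CDH3, P-cadherin (0.498 against 87 cpm), and CDH10 (0.0381 against 52.3 cpm).

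ZEB and SNAIL factors bind the E-box CACCTG, which was searched on both strands of the same 250 bases. It was present in 20.5% of the promoters of genes lower in MDA-MB-231 cells, in 14.9% of those higher, in 15% of those not called and in 17.5% of all promoters. Of the junction genes with a promoter in the table, 8 of 20 held it. The RAB25 promoter, on the plus strand at chr1:156060910-156061159 of GRCh38.p14 (RefSeq), is shown as the member with the lowest level ratio among them, with its single E-box at -41 in capitals.
RAB25: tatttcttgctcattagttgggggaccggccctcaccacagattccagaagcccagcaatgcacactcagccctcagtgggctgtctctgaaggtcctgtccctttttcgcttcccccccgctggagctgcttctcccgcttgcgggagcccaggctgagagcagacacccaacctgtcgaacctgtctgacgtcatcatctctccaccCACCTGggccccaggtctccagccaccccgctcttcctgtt

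Growth factor receptors differed in both directions and their ligands mostly in one. Of the receptors 20 of 43 tested were higher and 13 lower, against background shares of 23.4% and 22.7%. EGFR (567 against 15.8 cpm), MET (509 against 1.3 cpm), EPHA2 (354 against 2.86 cpm), NRP1 (793 against 1.31 cpm) and ROR1 (106 against 0.135 cpm) were higher in MDA-MB-231 cells. ERBB3 (7.04 against 462 cpm), ERBB4 (0.443 against 75.4 cpm), FGFR2 (0.136 against 50.0 cpm), IGF1R (69.8 against 219.8 cpm) and the growth hormone receptor GHR (0.211 against 149 cpm) were lower. ERBB2 missed the threshold (82.4 against 151 cpm). The ERBB family was thus divided between the lines. The ligands were higher for 23 of 34 members tested, with 7 lower. The EGFR ligands HBEGF (128 against 2.96 cpm), TGFA (201 against 45.5 cpm) and EREG (43.2 against 0.255 cpm), the ERBB3 ligand NRG1 (54.5 against 0.0781 cpm), and TGFB1 (159.6 against 1.57 cpm), TGFB2 (134 against 2.73 cpm), VEGFA (535 against 38.3 cpm) and VEGFC (91.6 against 2.82 cpm) were higher. TGFB3 (3.64 against 117 cpm), PDGFB (0.873 against 26.2 cpm) and EGF (5.42 against 21.6 cpm) were lower. FGF5 had 1743 counts in the MDA-MB-231 libraries and 1 in the T47D libraries, a ratio of 1749 with a 95% exact counting interval from 314 to 69138, which covers counting error only.

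Inflammatory genes were among the most unequal lists. Of the cytokines and chemokines 24 of 33 tested (38 in the table) were higher and 5 lower, with a median of 6.34. IL6 stood at 236, 237 and 214 cpm in the MDA-MB-231 libraries and at 0.0593, 0.236 and 0.169 cpm in the T47D libraries (log2 fold change 10.46 ± 0.18 (SE)). IL8, the neutrophil chemokine, stood at 268, 282 and 208 cpm in the MDA-MB-231 libraries and at 0.474, 0.354 and 0.734 cpm in the T47D libraries (log2 fold change 8.89 ± 0.20 (SE)). Both were abundant in MDA-MB-231 cells and below 1 cpm in every T47D library. PTGS2, which encodes COX2 (291 against 0.425 cpm), CSF1 (987 against 5.42 cpm), CSF3 (111 against 0.196 cpm), LIF (95.7 against 1.05 cpm), IL1A and IL1B (55.5 against 0.444 cpm and 52.8 against 0.313 cpm) were higher as well, and IL24 and CXCL11 had 24.7 and 21.3 cpm with no T47D count. Besides CXCL12, the lower members were CXCL16 (11.3 against 76.8 cpm), CCL28 (4.18 against 18.2 cpm), TNF (1.13 against 4.37 cpm) and CCL20 (0.911 against 3.08 cpm). NFKBIA missed the threshold (131 against 100.1 cpm). The lipopolysaccharide receptor TLR4 was at 112, 112 and 99.6 cpm in the MDA-MB-231 libraries and had 3 counts in all T47D libraries, a ratio of 1848 with a 95% exact counting interval from 632 to 8963.

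AP-1 factors, to which FOSL1 belongs, bind TGANTCA. This motif was present in 5.95% of the promoters of genes higher in MDA-MB-231 cells, 3.54% of those lower and 3.27% of those not called, against 6.6% of all promoters. It was found in 4 of 24 cytokine promoters in the table and 5 of 34 of the urokinase list, and in 0 of 27 promoters of the mesenchymal list. The IL8 promoter (listed as CXCL8, plus strand, chr4:73740319-73740568, GRCh38.p14, RefSeq) is shown as a member with the motif, which begins at -137 and stands in capitals.
IL8: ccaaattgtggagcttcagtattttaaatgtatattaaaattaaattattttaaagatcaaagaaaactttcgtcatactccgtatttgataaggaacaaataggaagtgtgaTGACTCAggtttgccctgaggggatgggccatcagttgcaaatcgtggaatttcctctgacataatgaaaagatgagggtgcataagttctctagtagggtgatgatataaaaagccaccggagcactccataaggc

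Interferon-stimulated and antigen presentation genes were higher for 36 of 52 members and lower for 4, with a median of 1.91. IFIT3 stood at 369, 351 and 324 cpm in the MDA-MB-231 libraries and at 5.63, 4.43 and 8.19 cpm in the T47D libraries (log2 fold change 5.83 ± 0.16 (SE)). IFIT1 stood at 132, 133 and 106 cpm in the MDA-MB-231 libraries and at 7.12, 9.87 and 31.2 cpm in the T47D libraries (log2 fold change 2.94 ± 0.35 (SE)). IFIT1 in replicate 3 of the T47D cells was above the other 2, yet every T47D library stayed below every MDA-MB-231 library for both genes. ISG15 (71.9 against 3.59 cpm), the DNA sensor IFI16 (233 against 0.466 cpm) and the RNA sensor DDX58 (183 against 19.2 cpm) were also higher. Other classical members went the other way or missed the threshold: MX1 (24.8 against 58 cpm), OAS3 (84.6 against 216 cpm), IFI6 (10.3 against 23.9 cpm) and USP18 (1.18 against 5.61 cpm) were lower, and BST2 (114 against 114 cpm) was not called. Class I antigen genes HLA-E (419 against 93.2 cpm) and B2M (1010.4 against 488 cpm) were higher, and the call of B2M was lost with upper-quartile factors, with library size alone, with the 2-fold threshold inside the test and without replicate 2 of either line. Also higher were the class II genes HLA-DRA (208 against 5.3 cpm) and CD74 (645 against 66.4 cpm) with their activator CIITA (29 against 1.26 cpm), and CD274, which encodes PD-L1 (21.5 against 0.212 cpm). HLA genes are polymorphic and close in sequence, so reads may be split between them or lost to mismatches with the reference.

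Interferon acts through a response element whose core is TTTC, any 2 bases and TTTC again (searched on both strands), which 21 of the 39 list members with a promoter in the table held, or 53.8%, against 3.07% of all promoters, 3.46% of those higher and 1.62% of those lower in MDA-MB-231 cells. Members with the element moved both ways, since IFI6 and OAS3, which were lower, held it too. The promoters of IFIT1 (chr10:89392373-89392622) and IFIT3 (chr10:89327747-89327996, the first of its listed starts), both on the plus strand of GRCh38.p14 (RefSeq), are shown with the element in capitals.
IFIT1: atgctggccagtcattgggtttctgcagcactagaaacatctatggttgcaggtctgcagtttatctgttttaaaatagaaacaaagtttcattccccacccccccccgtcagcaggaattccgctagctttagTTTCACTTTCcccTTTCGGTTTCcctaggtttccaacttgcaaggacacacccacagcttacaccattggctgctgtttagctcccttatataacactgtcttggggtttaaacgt
IFIT3: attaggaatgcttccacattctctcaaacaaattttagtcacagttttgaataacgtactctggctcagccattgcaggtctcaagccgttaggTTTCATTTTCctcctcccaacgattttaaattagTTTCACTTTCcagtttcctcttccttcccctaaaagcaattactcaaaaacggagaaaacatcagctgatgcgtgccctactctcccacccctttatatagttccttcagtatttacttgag
Matches began at -116 and -103 in IFIT1 and at -156 and -122 in IFIT3.

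Metabolic lists differed in direction. Glycolysis and hypoxia genes were higher in MDA-MB-231 cells for 22 of 36 members and lower for 4, with a median of 1.44. The lactate dehydrogenase subunits LDHA (1741 against 343 cpm) and LDHB (435 against 0.852 cpm), the lactate exporter SLC16A3 (277 against 21.1 cpm), the glucose transporters SLC2A1 (594 against 60.9 cpm) and SLC2A3 (42.3 against 0.117 cpm), and NDRG1 (280 against 4.69 cpm) were higher. GAPDH, often taken as a reference, stood at 1329, 1316 and 1418 cpm in the MDA-MB-231 libraries and at 478, 507 and 434 cpm in the T47D libraries (log2 fold change 1.52 ± 0.08 (SE)). The lower members were CA12, SLC16A1 (2.03 against 12.4 cpm), ALDOC (4.6 against 23.3 cpm) and PFKFB3 (87.6 against 219 cpm), and HK1 (439.5 against 422 cpm) and ALDOA (852 against 1101 cpm) missed the threshold. Cholesterol and fatty acid synthesis genes were lower for 15 of 37 members and higher for 6, with a median of -0.55. FASN (313 against 1557 cpm), SCD (176 against 1520.1 cpm) and SREBF1 (55.3 against 184 cpm) were lower, while the desaturases FADS1 (203 against 48.2 cpm) and FADS2 (129.5 against 25.4 cpm) and ELOVL6 (138 against 24.2 cpm) were higher. Detoxification and metallothionein genes were higher for 23 of 41 tested. MT1E, a metallothionein, stood at 37.5, 38.7 and 37.5 cpm with no T47D count, at least 650.4-fold higher, and its relative MT2A was at 455 against 33.9 cpm, although metallothionein genes are close copies whose reads may be shared. GSTP1 (88.9 against 0.0967 cpm), AKR1B1 (344 against 0.427 cpm) and TXNRD1 (1043 against 192 cpm) were higher, and NQO1 (217 against 593 cpm), GSTM3 (81.1 against 391 cpm) and ALDH3B2 (0.191 against 124 cpm) were lower.

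**Figure D3:**
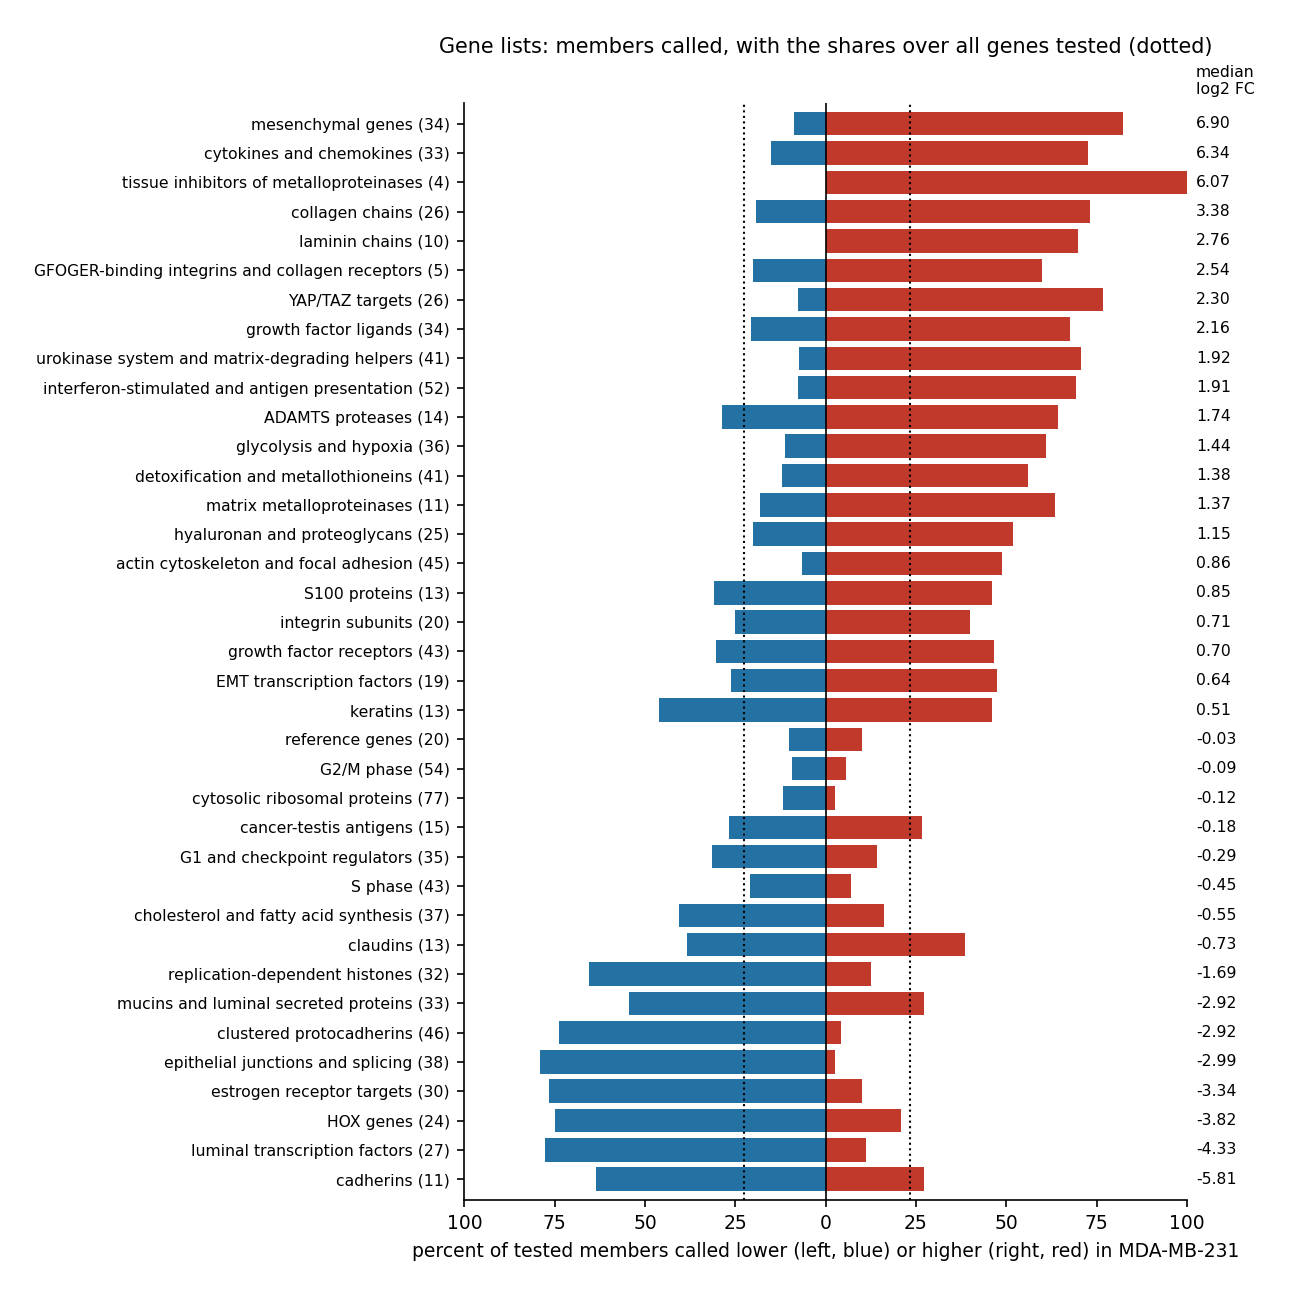
Share of tested members of each gene list called lower (blue, left) or higher (red, right) in MDA-MB-231 cells, with the number tested in brackets, the median log2 fold change at the right, and dotted lines at the shares of all genes tested (23.4% higher, 22.7% lower). Mesenchymal genes and cytokines stand at the top, luminal and junction genes at the bottom, and reference, G2/M and ribosomal genes are mostly uncalled.

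Among the proliferation lists, the G2/M genes were closest between the lines. Of the G2/M genes 46 of 54 were not called, 3 were higher and 5 lower, with a median of -0.09. MKI67, the proliferation marker, stood at 1500.4, 1496 and 1511 cpm in the MDA-MB-231 libraries and at 915, 979.7 and 1014 cpm in the T47D libraries, and its log2 fold change of 0.63 ± 0.07 (SE) missed the 2-fold threshold although the libraries did not overlap (edgeR adjusted p = 5.91e-07). HMMR, a mitotic spindle protein, was the lowest member relative to T47D cells (15.9 against 178 cpm), and BUB1 (236 against 89.1 cpm) was higher. Of the S phase genes 9 of 43 were lower and 3 higher, with a median of -0.45. The replication genes GINS2 (17 against 126 cpm), MCM4 (238 against 533 cpm) and CCNE2 (38.3 against 82.7 cpm) were lower, and CDCA7 had 13.3 cpm with no T47D count. Among G1 and checkpoint genes 11 of 35 were lower and 5 higher. The cyclin-dependent kinase inhibitors CDKN2A (0.057 against 24.1 cpm) and CDKN2B (0.0206 against 10.1 cpm) were nearly undetected in MDA-MB-231 cells, where CDK6 (228 against 5.3 cpm) was higher, while RB1 (122 against 153 cpm) missed the threshold. The reference genes were not called in 16 of 20 cases (median -0.03), the exceptions being GAPDH and PGK1 (532 against 259 cpm), higher, and TFRC (884 against 2290.2 cpm) and GUSB (78.7 against 188 cpm), lower. Cytosolic ribosomal proteins were not called in 66 of 77 cases (median -0.12). Of the S100 genes 6 of 13 were higher, led in level by S100A6 (1410 against 176 cpm), and S100P (0.649 against 27.1 cpm) and S100A9 (0.0758 against 24.9 cpm) were lower. Cancer-testis antigens, 15 of 116 tested, were higher for 4 and lower for 4, and the 5 miR-200 genes did not pass the filter.

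Some genes were detected in one line only. With no count in the 3 libraries of one line and a mean of at least 1 cpm in the other, 180 genes were found in MDA-MB-231 and 131 in T47D cells. The highest in MDA-MB-231 were PRKCDBP, MT1E, WASF3 (35.7 cpm, an actin regulator), MMP3, ADAMTSL1 (31.3 cpm), SLAMF7 (25.7 cpm), IL24, CXCL11, CORO2B and SDPR (20.5 cpm, another caveolae gene). The highest in T47D cells were FXYD3, an ion pump regulator, at 50.8, 49.3 and 48.4 cpm and thus at least 846-fold higher there, ABCC12 (32 cpm), C1orf172 (20.2 cpm), PDZRN3 (15.4 cpm), MGC45800, LOC728342, ZDHHC8P1, RIMS4, LOC100128252 and C5orf58. Among the called genes, restricted to a log2 cpm averaged over libraries of 4 or more, the 10 largest increases also held FLG, TLR4, PDLIM4, CAV2, SRPX and DPYD, and the 10 largest decreases held TMPRSS13 (0.0189 against 83.5 cpm), HOXC11, CACNA1D, THNSL2, HOXC10 (0.176 against 211 cpm), CDH10, SLITRK4 and the RNA DSCAM-AS1 (0.0965 against 115 cpm), which lies within DSCAM. FLG, PDLIM4 and SRPX had 1 T47D count each and TMPRSS13, HOXC11, CACNA1D and THNSL2 had 1 MDA-MB-231 count each, so these ratios rest on single counts. For TMPRSS13 the ratio was 4283 with a 95% exact counting interval from 768 to 169216.

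Several of these genes lay side by side on the chromosomes (positions on hg19). The HOXC cluster on chromosome 12 was part of 15 neighbouring tested genes that were all lower in MDA-MB-231 cells, from HOXC13 to CBX5 (chr12:54332576-54673915), with a median log2 fold change of -6.56. It held HOXC10, the long noncoding RNA HOTAIR (0.0586 against 33.5 cpm), HOXC13 (0.0602 against 51.3 cpm) and HOXC4 (0.353 against 43.8 cpm), where HOXC4, HOXC5 and HOXC6 share parts of their spans, and ended with the heterochromatin protein gene CBX5 (229.5 against 1166 cpm). Of the HOX genes as a whole 18 of 24 tested (39 in the table) were lower and 5 higher. HOXB9 (31.4 against 2.47 cpm) and HOXD1 (4.6 against 0.211 cpm) were among those higher, and HOXB2 (0.429 against 72.1 cpm) and HOXB3 (4.0 against 30.5 cpm) were lower. The longest run overall held 21 protocadherin alpha and beta genes on chromosome 5 (chr5:140165876-140571111), and 11 gamma genes formed another run, all lower in MDA-MB-231 cells. Alpha and gamma protocadherins share their last exons within each cluster, so their counts depend on how shared reads were assigned. PCDHB16 (2.84 against 46.8 cpm), from the beta cluster, is a single-exon gene, and in all 34 of 46 clustered protocadherins tested were lower. The runs of higher genes were shorter: 9 genes on chromosome 4 from FRAS1 (67.1 against 0.251 cpm) through ANXA3 (138 against 2.04 cpm), ANTXR2 (397 against 2.72 cpm) and PRDM8 to FGF5 (chr4:78978724-81212171), 9 on chromosome 12 from APOLD1 to HTR7P1 around GPRC5A (157 against 17.5 cpm), and 8 on chromosome 6 from BTN3A2 to HMGN4, mostly butyrophilins such as BTN3A3 (19.8 against 0.736 cpm). Runs of 8 higher genes also lay on chromosome 12 from EFCAB4B to NDUFA9 and on chromosome 8 from LOXL2 to DOCK5.

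**Figure D4:**
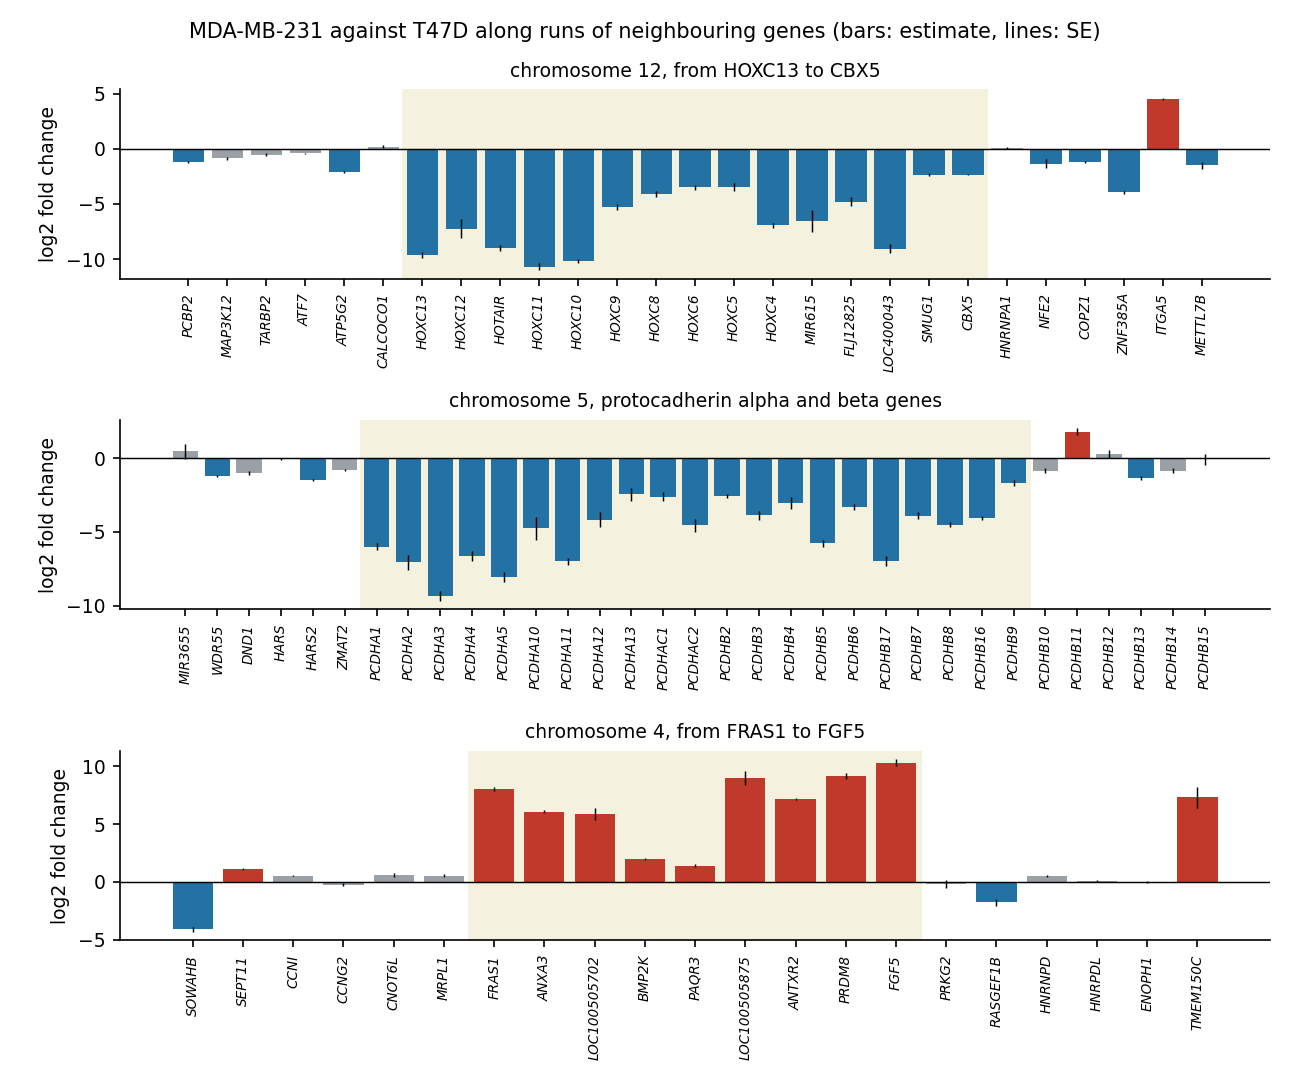
Log2 fold change of MDA-MB-231 against T47D cells with its SE for tested genes in chromosome order, for the runs of 15 genes around HOXC, 21 protocadherins and 9 genes from FRAS1 to FGF5 (shaded) and 6 neighbours on either side; red, blue and grey mark higher, lower and not called. The shaded runs end at neighbours that were not called.

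Replication-dependent histone messages end without a poly(A) tail, yet 32 of 72 passed the filter, of which 21 were lower in MDA-MB-231 cells and 4 higher. Neighbours HIST1H2AE, HIST1H2BF and HIST1H4E on chromosome 6 had no count in MDA-MB-231 and 4.06, 3.78 and 3.48 cpm in T47D libraries, whereas HIST1H2BD (42.3 against 45 cpm) and HIST1H1C (44.8 against 45 cpm) were not called. On chromosome 9, MTAP (0.0776 against 29.3 cpm) was nearly undetected in MDA-MB-231 cells together with its neighbours CDKN2A (chr9:21967751-21994490) and CDKN2B. Whole chromosomes shifted less. Chromosome 16 had the lowest median log2 fold change, -0.77 over 647 tested genes, with 39.9% lower and 10.5% higher in MDA-MB-231 cells, followed by chromosomes 15 and 14 at -0.37 and -0.29. Chromosomes 4 and 6 had the highest medians, 0.55 and 0.52, with 35.1% and 36.7% of their genes higher. DNA copy number was not measured in these libraries.

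To see where this difference depended on the collagen mimic, it was compared with the difference in IKVAV matrices in 1 fit of all 11 libraries (2 for MDA-MB-231 with IKVAV, 3 for each other condition). In that fit 7176 of 15310 genes (46.9%) were called between the lines in GFOGER and 7027 (45.9%) in IKVAV, from separate libraries, and 5944 genes were called in the same direction in both, which is 82.8% of the GFOGER calls and 84.6% of the IKVAV calls. Of the 1219 genes called in GFOGER alone, only 199 passed the test of the difference itself. That test, the interaction of cell line and mimic, called 984 genes, 6.43% of those tested, and 1295 genes with a term for the implied library totals. These totals were high in all MDA-MB-231 and low in all T47D libraries with GFOGER, and mixed within each line with IKVAV. The paper left 1 MDA-MB-231 replicate with IKVAV out of its own testing as a technical outlier. SOX4, a transcription factor, and CPE, a carboxypeptidase, were called in opposite directions in the matrices. SOX4 stood at 30.8, 30.2 and 29.2 cpm in MDA-MB-231 cells with GFOGER and at 293 and 305 cpm with IKVAV, whereas T47D cells lay between 117 and 147 cpm in all 6 libraries. CPE stood at 19.6, 18.6 and 17.7 cpm and at 212 and 210.4 cpm, with 93.3 to 119 cpm in T47D cells. Both genes were below T47D cells with GFOGER and above them with IKVAV, with adjusted p-values for the difference of 9.53e-13 and 1.16e-12 (edgeR). MUC5B, a gel-forming mucin, was close between the lines with GFOGER (1.2, 1.55 and 3.13 against 1.45, 2.35 and 2.4 cpm) and at 94.6 and 98.3 cpm in MDA-MB-231 cells with IKVAV. DYSF, the membrane repair protein dysferlin, was higher in MDA-MB-231 cells in both matrices, with log2 fold changes of 5.72 in GFOGER and 2.58 in IKVAV.

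**Figure D5:**
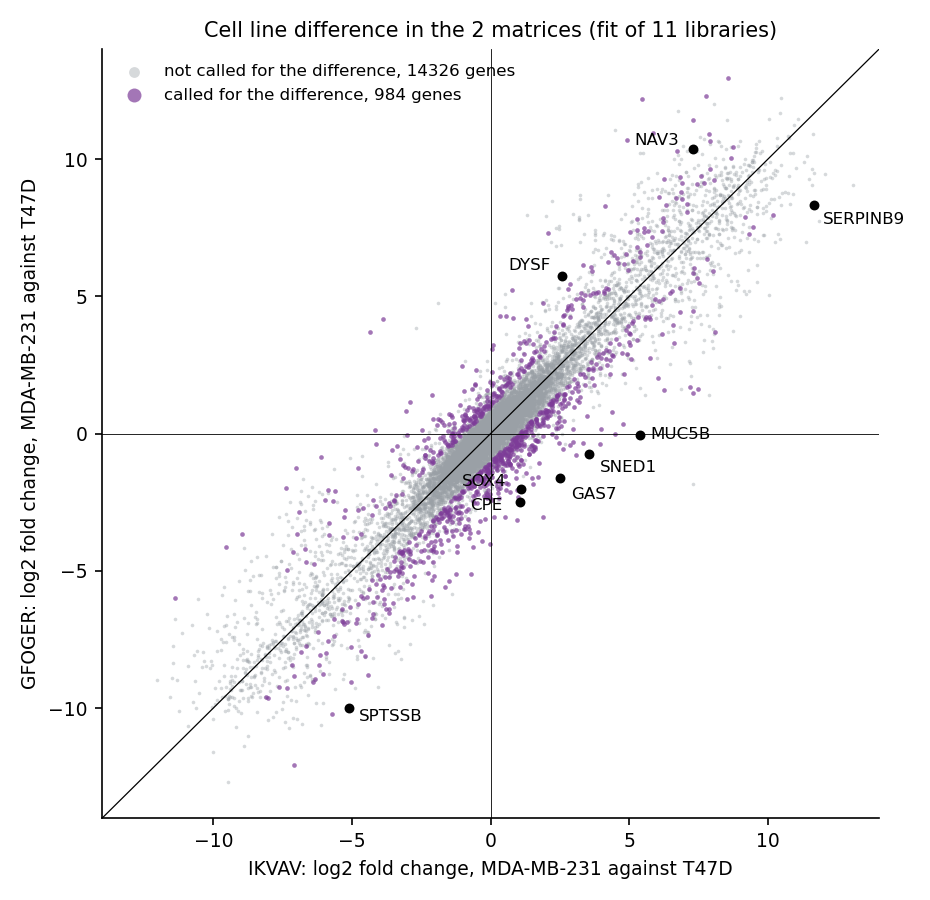
Log2 fold change of MDA-MB-231 against T47D cells in IKVAV (horizontal) and GFOGER (vertical) for 15310 genes from the fit of 11 libraries, with the 984 genes called for the difference in purple and a line at equality. Most genes follow the line; SOX4, CPE and GAS7 lie below 0 in GFOGER and above 0 in IKVAV.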

How the data were processed

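Per the labels and the methods, cells were released from the gels with collagenase, and stranded libraries were made from poly(A) RNA. The authors aligned reads to hg19 with TopHat2 and counted them with HTSeq; the gene annotation and the strand option are not given in the sources used here. The deposited table holds raw read counts per gene and RPKM values; only the library totals implied by the deposited RPKM values were used, and no column was left unmapped. Entries that repeat a symbol (1288) were left out. Counts were tested in R 4.3.3 with edgeR 4.0.16 (TMM, filterByExpr defaults, glmQLFTest, Benjamini-Hochberg adjustment over all genes tested); a gene was called at an adjusted p below 0.05 with a change above 2-fold in either direction (biological coefficient of variation 0.0888). On simulated data with these depths, in which only 200 of 14336 genes were changed, 197 were recovered with 1 false call. The real comparison called 6718 genes, so this simulation does not measure its error rate. Gene lists (44) were described by counts and medians, without set tests. The members and lists were chosen with earlier results of these data known. Named genes were a fixed set of 12, the 10 largest changes in each direction (log2 cpm averaging 4 or more, no overlap), up to 4 called members per list and direction plus members whose role a sentence needed, genes of one line only, the highest per kilobase, the longest runs and the largest interactions; MTAP, CDKN2A and CDKN2B as neighbours, the histone examples and further list members beyond 4 were chosen after their values were seen, as were the motifs. Some items are not reported here. Motifs were searched in 27305 RefSeq promoters (GRCh38.p14), which matched 11124 of the genes tested. Alternatives were DESeq2 1.42.0, edgeR's likelihood ratio test, other scalings and filters, the adjusted p alone, a test against 2-fold, a block for the replicate number, a joint fit of 4 conditions with and without a term for the implied totals, and leaving out each library.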

Additional observations from a re-analysis of the deposited data

Results flagged for a closer look

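The difference between the cell lines itself differed between GFOGER and IKVAV matrices for 984 genes by edgeR's quasi-likelihood test of the interaction, 344 with a positive and 640 with a negative value (GFOGER minus IKVAV, log2 scale). The most negative values, among genes whose log2 cpm averaged 4 or more, were MUC5B at -5.45, SPTSSB at -4.89, SNED1 at -4.29, CPE at -3.54 and SERPINB9 at -3.36. The most positive were PRKCDBP at 4.42, DYSF at 3.14, NAV3 at 3.07, FLG at 3.03 and PDLIM4 at 2.73. Of these, PRKCDBP, FLG, PDLIM4, NAV3 and SERPINB9 had at most a few reads in any T47D library and SPTSSB at most a few in any MDA-MB-231 library with GFOGER, so these values rest on few counts. Several of the calls depended on the libraries. PRKCDBP kept its call without any one MDA-MB-231 library with GFOGER or without replicate 2 of T47D with IKVAV, and lost it without any other library. FLG kept it without replicate 2 or 3 of MDA-MB-231 or replicate 1 of T47D with GFOGER or replicate 3 of T47D with IKVAV, and PDLIM4 without replicate 3 of either line with GFOGER. NAV3 lost its call without replicate 1 or 2 of T47D with IKVAV.

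The lines were called in opposite directions in the matrices for 13 genes, all of which passed the interaction test. Besides CPE, 8 genes were lower in MDA-MB-231 cells with GFOGER and higher with IKVAV, namely SOX4 at -3.08, GAS7 at -4.12, SLC47A1 at -3.29, IER5L at -2.18, RARRES1 at -3.39, CD37 at -2.80, TMEM37 at -2.70 and PRAM1 at -4.93. RARRES1, CD37, TMEM37 and PRAM1 were below 1 cpm in every MDA-MB-231 library with GFOGER, so their values rest on few counts. PRAM1 was at 0, 0 and 0.0559 cpm there and at 0.121 to 0.343 cpm in T47D libraries with GFOGER. The reverse held, among others, for RIMS2 at 4.07, AMPH at 8.08 and ELMO1 at 8.05. AMPH and ELMO1 had no count in the MDA-MB-231 libraries with IKVAV, so that their fitted values depend on the prior count. Both were at 0 to 0.181 cpm in the T47D libraries, and RIMS2 at 0.129 and 0.12 cpm in the MDA-MB-231 libraries with IKVAV. Their lower values with IKVAV thus rest on few counts. Groups of 3 libraries are too small for a check of single outlying values.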

How the results depend on the processing

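The count of 6718 called genes became 6696 with DESeq2, 6725 with the likelihood ratio test, 6749 with upper-quartile factors and 6753 with library size alone. The split of 3407 higher and 3311 lower became 3138 and 3611 with upper quartiles. The count was 7874 without the filter, and with at least 10 counts in every library, which removes genes silent in one line, 4324 (2175 higher, 2149 lower). The adjusted p alone gave 11801 (5985 higher, 5816 lower) and the fold threshold inside the test 5666. All 4 conditions in one fit gave 7176, and 7056 with a term for the implied totals. Leaving out one library gave 6847 to 6917 (3374 to 3510 higher, 3382 to 3519 lower), 179 to 245 genes found in MDA-MB-231 alone and 129 to 184 in T47D alone. Replicate numbers did not pair the libraries (deviations correlated at 0.0337, -0.158 and -0.23), and the replicate block gave 6719. The interaction count of 984 was 1001 with DESeq2, 883 with the replicate block, 1295 with the implied totals and 798 to 1140 without one library.
Of 351 named genes, 311 were called, 307 to 310 without one library, and 184 with at least 10 counts in every library, where many were no longer tested. Many were named because they were called, so their share is no measure of all genes tested, of which 46.1% were called. No value of a named gene changed sign where the gene was called in the main fit or in the alternative. Sign changes of genes called in neither fit, such as those near 0, were not counted. B2M, PGK1 and PKM2 lost their calls with upper quartiles or library size, B2M and TAGLN also without replicate 2 of either line, ACTA2 without replicate 1 of MDA-MB-231, CD37 without replicate 1 or 2 of MDA-MB-231 or 3 of T47D, RIMS2 without replicate 2 of MDA-MB-231 or 1 of T47D, PKM2 without replicate 3 of MDA-MB-231, and MX1 and PGK1 without replicate 3 of T47D. The medians of 40 of 43 lists kept their sign; those of reference genes, cancer-testis antigens and keratins did not. The 95% intervals cover counting error only.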
